A study of Mus musculus with 11 samples.

Results

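Plin4, Sult1a1, Hif3a, Klf9, Map3k6 and Cdkn1a are 6 genes known to be induced by glucocorticoids, and they are described here in the hypothalamus and the cerebellum of fed and fasted mice. They were chosen by name, with their fasted against fed values in these arrays already known, and every probe that the array annotation assigns to exactly one of these symbols was taken. This gave 10 probes of 34999 on the array, and 6 genes of the 18048 that have a probe with a single symbol. Because those values guided the choice, the fasting changes of the 6 genes are given as a description, without a test.

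The mice were wild-type SV/129 females aged 10 weeks. Food was withdrawn from 6 mice when the dark phase began, and tissue was taken 16 h later, while 6 other mice kept their chow. Water was available to both. RNA of the 6 mice of a feeding state was pooled for each region, so the fed and fasted hypothalamus and the fed and fasted cerebellum are represented by 4 pools. RNA of each pool went onto 3 CodeLink single-colour arrays, and 1 array of the fasted cerebellum did not pass quality control, which left 11 arrays. Arrays of a group therefore repeat 1 RNA pool. All errors and p-values below hold labelling and hybridisation error, not the difference between mice.

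Corticosterone, the main glucocorticoid of mice, is released by the adrenal gland under the control of hypothalamic Crh and pituitary Pomc products, and it rises when food is withheld. It enters cells and binds the glucocorticoid receptor, encoded by Nr3c1, which leaves its chaperone complex, moves into the nucleus and binds DNA at imperfect palindromes. In the brain, neurons, astrocytes, oligodendrocytes and vascular cells all carry the receptor, and its target genes serve lipid storage, sulfation, growth arrest and feedback on stress kinases. Hormone levels were not analysed here.

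The promoters of 5 of the 6 genes are shown because their start regions differ in the letters a receptor dimer could read. A link between these letters and the fasting changes was not tested. RefSeq's promoter table (GRCm38.p6) held all 6 genes with 7 start sites, each from 250 bases before the start to 50 bases from the start on. Capitals mark the receptor palindrome (GNACA and TGTNC 3 bases apart) and the receptor hexamer AGAACA, both searched on both strands, the p53 decamer on both strands, and TATAA on the gene's own strand. The sequences run 5′ to 3′ on the gene's strand.
Plin4, chr17:56109733-56110032, minus strand: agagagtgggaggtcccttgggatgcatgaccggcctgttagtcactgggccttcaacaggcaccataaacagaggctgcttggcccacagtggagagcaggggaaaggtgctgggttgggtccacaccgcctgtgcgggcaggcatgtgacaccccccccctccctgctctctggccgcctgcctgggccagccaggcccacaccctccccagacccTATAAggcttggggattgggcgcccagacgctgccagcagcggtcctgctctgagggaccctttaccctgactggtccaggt
Sult1a1, chr7:126676369-126676668, minus strand: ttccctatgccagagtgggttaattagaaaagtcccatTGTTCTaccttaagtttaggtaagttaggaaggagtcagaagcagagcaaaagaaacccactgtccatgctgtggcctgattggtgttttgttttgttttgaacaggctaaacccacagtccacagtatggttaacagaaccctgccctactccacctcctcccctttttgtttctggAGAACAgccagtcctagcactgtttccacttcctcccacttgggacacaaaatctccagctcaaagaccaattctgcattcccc
Hif3a, chr7:17062378-17062677, minus strand: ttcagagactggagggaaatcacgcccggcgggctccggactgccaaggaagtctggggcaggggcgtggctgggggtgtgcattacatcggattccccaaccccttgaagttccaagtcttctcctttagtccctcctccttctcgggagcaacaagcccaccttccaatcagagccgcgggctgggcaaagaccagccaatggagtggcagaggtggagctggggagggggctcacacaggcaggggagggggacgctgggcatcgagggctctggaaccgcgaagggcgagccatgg
Map3k6, chr4:133240568-133240867, plus strand: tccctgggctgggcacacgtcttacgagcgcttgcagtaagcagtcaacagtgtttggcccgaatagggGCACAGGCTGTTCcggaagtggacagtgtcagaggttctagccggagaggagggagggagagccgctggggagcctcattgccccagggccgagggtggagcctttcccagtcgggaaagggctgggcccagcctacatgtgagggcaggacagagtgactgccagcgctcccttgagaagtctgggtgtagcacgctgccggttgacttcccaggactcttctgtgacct
Cdkn1a, chr17:29090729-29091028, plus strand, upstream of its 2 start sites: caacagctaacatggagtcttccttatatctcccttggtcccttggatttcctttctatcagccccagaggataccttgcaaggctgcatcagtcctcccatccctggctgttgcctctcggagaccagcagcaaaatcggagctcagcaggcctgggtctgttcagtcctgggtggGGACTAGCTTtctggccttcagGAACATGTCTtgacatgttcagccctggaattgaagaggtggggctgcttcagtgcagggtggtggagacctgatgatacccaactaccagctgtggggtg

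Map3k6 held the full palindrome, GCACAGGCTGTTC, beginning 181 bases before its start. Of 32851 promoters of this length, 0.475% held that pattern. Sult1a1 had the hexamer as TGTTCT 212 bases and as AGAACA 34 bases before its start, a pattern found in 19.0% of promoters. Plin4 had TATAA 32 bases before its start (17.5% of promoters), and Cdkn1a had p53 decamers 73 and 51 bases before the start shown (8.36% of promoters). TATAA also lay 25 bases before the other Cdkn1a start. Hif3a and Klf9 held none of these letter patterns in this window. The palindrome thus stood in 1 of the 7 windows. A match of letters describes the sequence and is not a measured binding site.

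Values below are ratios. Before deposit, the authors set each probe's fed median to 1 within a region, so a fed array sits near 1 and only changes within a region can be read. No level can be set against that of another probe or of the other region, and the labelled tissues could not be checked against their marker genes by level. Each ratio was further divided by the median ratio of its array, and changes are log2 of fasted minus fed with the standard error (SE) of a limma fit over all 11 arrays. In bulk tissue, fewer cells of a type and less RNA per cell cannot be told apart.

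In the hypothalamus, the fasted arrays lay wholly above the fed arrays for Plin4, Sult1a1, Hif3a and Map3k6, wholly below for Klf9, and overlapped for Cdkn1a. Over all 18048 genes with 1 probe each, the fasted arrays lay above in 16.6% and below in 22.6%. In the cerebellum the fasted arrays lay above the fed ones for each of the 6 genes, against 20.6% above and 31.1% below over all genes. The members were picked with these values in view, so nothing is read from their count or from the medians that follow. The median log2 change of the 6 genes was 0.26 in hypothalamus and 0.63 in cerebellum, beside medians of -0.02 for all genes in each region. In the plot of single arrays, Plin4, Sult1a1 and the representative Hif3a probe changed more in hypothalamus, and Map3k6 and Cdkn1a more in cerebellum. The regional difference of that Hif3a probe was 0.12 ± 0.07 log2. Klf9 had opposite signs in the regions, but its cerebellar sign changed with scaling. The same values chose the members, so no pattern is read from the plot.

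**Figure D1:**
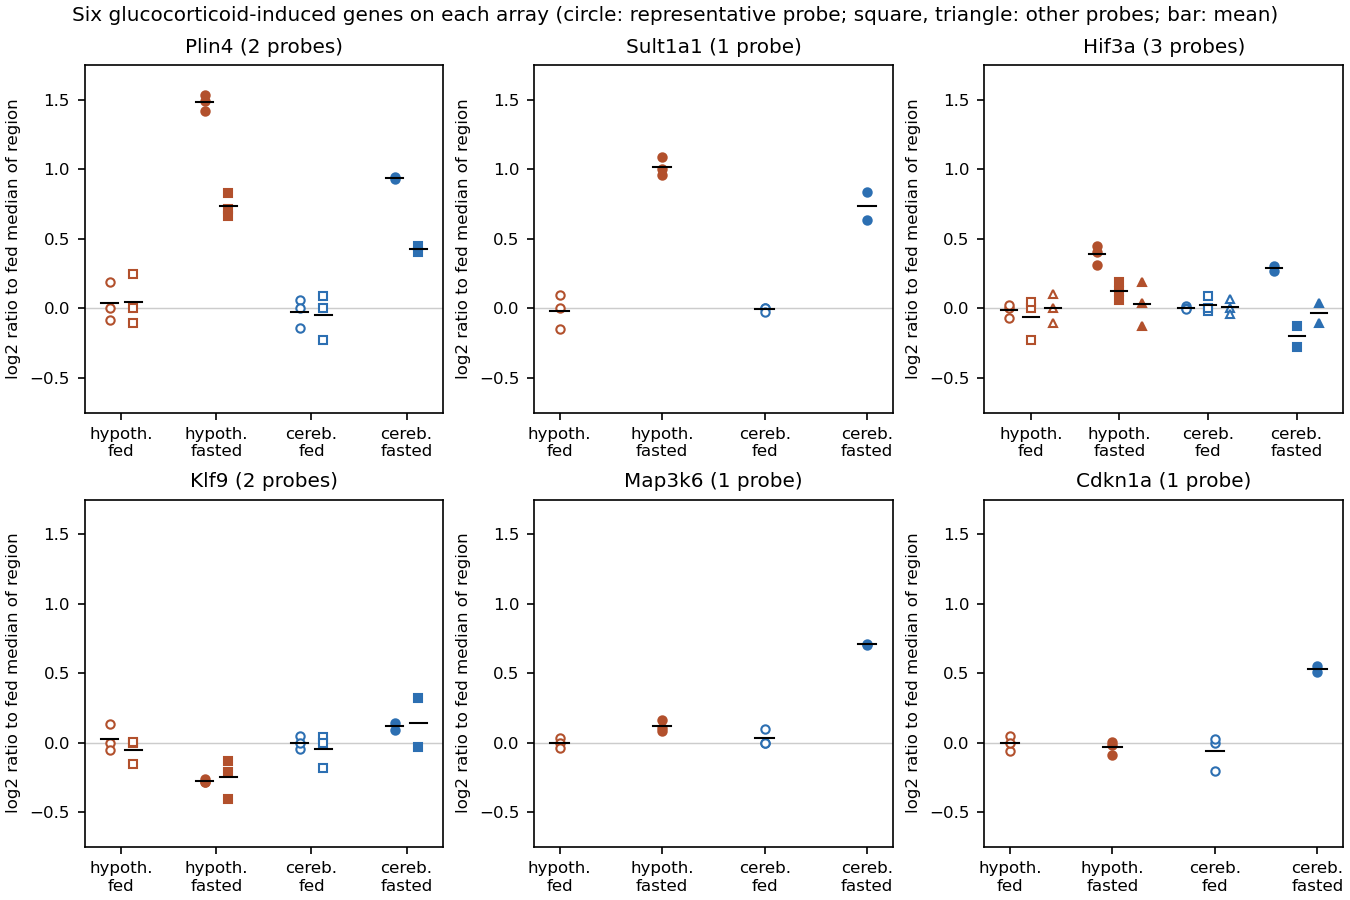
Log2 ratio to the fed median of the region (y axis, after scaling to the array median) for every probe of the 6 genes on each of the 11 arrays; open symbols are fed, filled symbols fasted, circles the representative probe of a gene and bars group means. Plin4 reaches ratios of 2.68 to 2.90 in the fasted hypothalamus, whereas Cdkn1a separates from its fed arrays in the cerebellum and not in the hypothalamus.

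Plin4 encodes perilipin 4, a coat protein of lipid droplets best known from adipocytes. On its representative probe, the one with the smallest spread between arrays, the hypothalamus gave ratios of 1.14, 1.00 and 0.942 on the fed arrays and of 2.82, 2.68 and 2.90 on the fasted arrays. Cerebellum arrays stood at 0.908, 1.04 and 1.00 when fed and at 1.91 and 1.93 when fasted. Every fasted array lay far above every fed array in both regions. This is 1.45 ± 0.08 log2 in hypothalamus (2.73-fold) and 0.96 ± 0.09 in cerebellum (1.95-fold), the 56th and the 680th highest of 34999 probes. The other Plin4 probe gave 1.64, 1.59 and 1.78 in the fasted hypothalamus (fed 0.928, 1.00 and 1.19) and 1.33 and 1.36 in the fasted cerebellum (fed 0.856, 1.06 and 1.00). Its changes were smaller, 0.69 ± 0.11 and 0.47 ± 0.12, which is 0.475 and 0.490 times those of the first probe. Both Plin4 probes thus agreed in direction in both regions, and the share of the change that the second one recorded was alike in the regions.

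Sult1a1 encodes a cytosolic sulfotransferase that conjugates phenols, among them catecholamine metabolites and drugs. Its 1 probe gave 1.07, 0.902 and 1.00 in the fed and 2.13, 1.95 and 2.01 in the fasted hypothalamus. In the cerebellum the fed arrays read 1.00, 1.00 and 0.984 and the fasted arrays 1.55 and 1.79. The groups did not overlap in either region, although the 2 fasted cerebellum arrays stood further apart than the 3 fed ones. The changes were 1.04 ± 0.07 log2 (2.05-fold) and 0.74 ± 0.08 (1.67-fold).

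Hif3a encodes a hypoxia-inducible factor subunit whose short forms hold back the other subunits. The representative probe was steady, with 1.00, 0.954 and 1.02 in the fed and 1.36, 1.24 and 1.32 in the fasted hypothalamus, and 1.01, 1.00 and 0.998 in the fed and 1.24 and 1.20 in the fasted cerebellum. Fasted arrays were higher by 0.40 ± 0.05 and 0.28 ± 0.05 log2 (1.32-fold and 1.22-fold). Neither of the other 2 probes followed it in both regions, and 1 of them did so in hypothalamus only. One, assigned to an expressed sequence tag, stood at 1.09, 1.04 and 1.14 in the fasted hypothalamus (fed 1.00, 0.853 and 1.03), a change of 0.19 ± 0.08. In the cerebellum that probe was lower when fasted, 0.826 and 0.915 against 0.986, 1.06 and 1.00, a change of -0.22 ± 0.09. The third probe, assigned to a RefSeq transcript, overlapped in both regions, with changes of 0.03 ± 0.09 and -0.04 ± 0.10. Averaged over the 3 probes, Hif3a stood at 0.21 in hypothalamus and at 0.00 in cerebellum, so its higher value in the fasted cerebellum rests on 1 probe.

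As a description, the change in hypothalamus was 1.5 ± 0.16 times that in cerebellum on the log2 scale for Plin4 and 1.40 ± 0.19 times for Sult1a1. The representative Hif3a probe gave 1.42 ± 0.30 times and the other Plin4 probe 1.46 ± 0.43 times. The other Hif3a probes gave ratios of -0.83 ± 0.48 and -0.76 ± 2.57, and Map3k6 gave 0.18 ± 0.06. With quantile normalization over all arrays the ratios were 3.15 for Plin4, 3.22 for Sult1a1 and 2.3 for the representative Hif3a probe, and with quantile normalization within regions 2.36, 2.35 and 2.11. No pattern is read from the ratios, since the same values chose the members. Over the 11 arrays the log2 ratios of Plin4 followed those of Sult1a1 (Pearson r = 0.98) and Hif3a (0.97). The arrays come from only 4 pools and share their fed reference, so these coefficients describe the group means more than the arrays.

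**Figure D2:**
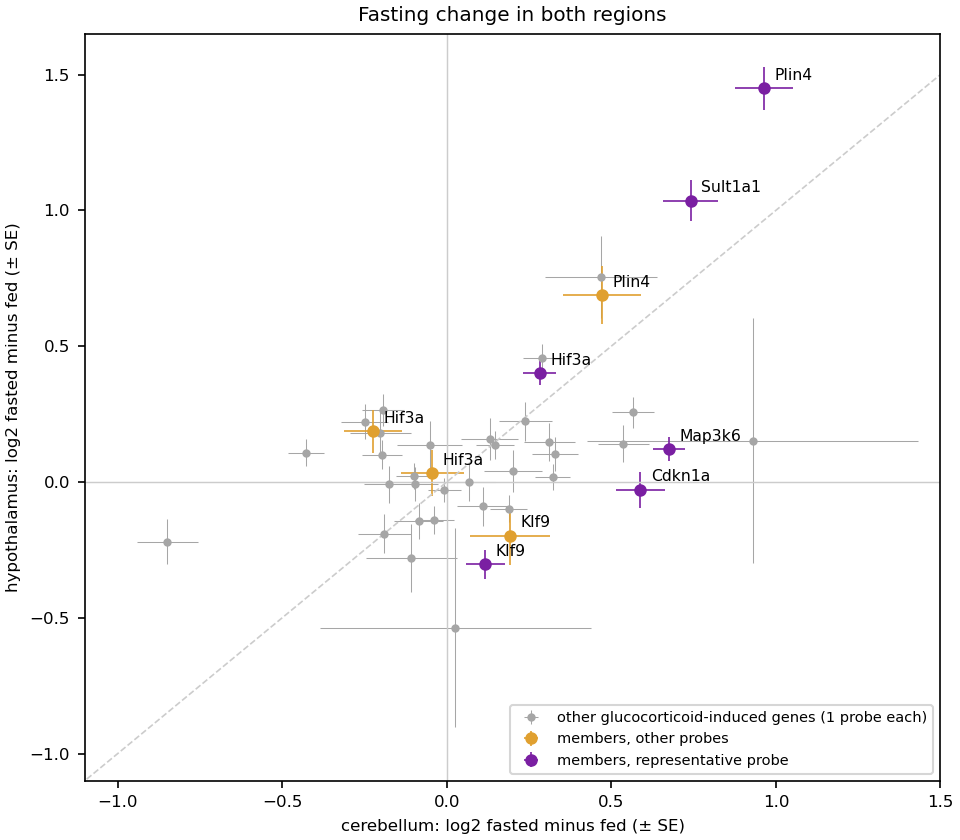
Log2 fasting change in cerebellum (x axis) against hypothalamus (y axis), with standard errors, for the 10 member probes and, in grey, 1 probe for each of the 31 other glucocorticoid-induced genes; the dashed line marks equal change. Plin4, Sult1a1 and the representative Hif3a probe lie above the line, Map3k6 and Cdkn1a far below it, and both Klf9 probes in the quadrant of lower hypothalamus and higher cerebellum.

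Klf9 encodes a zinc finger factor of the Krüppel family and is a direct receptor target in many tissues, the hippocampus included. Its representative probe was lower in the fasted hypothalamus, with 0.820, 0.836 and 0.821 against 1.10, 1.00 and 0.963 on fed arrays. In the cerebellum it was slightly higher, with 1.07 and 1.10 against 1.03, 0.970 and 1.00. The 3 fasted hypothalamus arrays were close together and below all fed ones. The changes were -0.30 ± 0.05 (0.810-fold) and 0.12 ± 0.06 (1.09-fold), a difference between regions of -0.42 ± 0.08 log2. The second probe had the same signs, -0.20 ± 0.11 and 0.19 ± 0.12, but its fed and fasted arrays overlapped in both regions. The cerebellar value of the first probe turned to -0.01 when arrays were scaled to their 75th percentile, and its sign there is unsettled.

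Map3k6 encodes a kinase kinase kinase, also called ASK2, that acts upstream of the p38 and JNK stress kinases. In the cerebellum its ratios were 0.998, 1.07 and 1.00 on fed and 1.63 and 1.63 on fasted arrays, the tightest pair of any member probe. In the hypothalamus they were 1.02, 1.00 and 0.971 on fed and 1.12, 1.08 and 1.06 on fasted arrays. The groups were apart in both regions, and the cerebellar change of 0.68 ± 0.05 log2 (1.6-fold) stood beside 0.12 ± 0.04 in hypothalamus (1.09-fold). The hypothalamic change was 0.18 ± 0.06 times the cerebellar one.

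Cdkn1a encodes p21, which blocks cyclin-dependent kinases and is driven by p53 as well as by the glucocorticoid receptor. Its fasted cerebellum arrays stood at 1.42 and 1.46 above fed arrays of 1.00, 1.02 and 0.866, a change of 0.59 ± 0.07 log2 (1.5-fold). The hypothalamus arrays overlapped, with 0.989, 1.00 and 0.940 fasted and 0.957, 1.04 and 1.00 fed, and the change there was -0.03 ± 0.07. Cdkn1a and Map3k6 each have 1 probe, so no second probe bears on them. They followed each other over the 11 arrays (r = 0.94) and followed Plin4 loosely (r = 0.24 and 0.42).

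The agreement of the Plin4 probes can be set beside that of other genes on this array. Since the fasted against fed values of Plin4 were known when it was chosen, no support is drawn from the comparison. Of genes with several probes whose representative probe was called in hypothalamus, 585 had 704 other probes, and 62.5% of these had the same sign. For only 27.4% were the fasted arrays apart from the fed arrays in the same direction. In cerebellum the figures were 59.9% and 35.0% of 1105 probes. The median ratio of the other probe's change to the first was 0.253 in hypothalamus and 0.137 in cerebellum. Where the first probe had changed at least 1.5-fold, as Plin4 did in both regions, 36.0% of 25 other probes in hypothalamus and 34.1% of 170 in cerebellum were apart in the same direction. Probes of a gene disagreed often on this array, so the single probes of Sult1a1, Map3k6 and Cdkn1a carry that limit.

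By Pearson r over the 11 arrays, the genes most like Plin4 were Sult1a1 (r = 0.98), Accsl (0.98) and the prolactin gene Prl (0.98). Sult1a1 was most like Plin4, Prl and Hif3a (0.98 each). Hif3a was nearest to 4930500G05Rik, Sult1a1 and Gm9925 (0.98 each). Klf9 was nearest to the cholecystokinin gene Cck (0.99), Cit (0.98) and Fign (0.98), which were lower by 0.75, 0.47 and 0.44 log2 in the fasted hypothalamus and higher by 0.22, 0.19 and 0.22 in the fasted cerebellum. Map3k6 was nearest to Gpatch2, Tdrd6 and Pomc (0.98 each), and Cdkn1a to Cd83, 2610002M06Rik and Atp6v0e2 (0.98 each). These likenesses were picked as the highest of 18048 genes on 4 pools and carry no test.

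A wider list was counted beside the members. Like them, it was chosen with earlier results of these data known, so its shares and medians are a description. Of 36 other glucocorticoid-induced genes, 31 had a probe. In hypothalamus 4 rose, 0 fell and 27 were not called at an adjusted p under 0.05 (limma, Benjamini-Hochberg over 34999 probes), with 7 higher and 3 lower at an unadjusted p under 0.05. Fasting called 14.2% of all 34999 probes in hypothalamus and 20.9% in cerebellum, and the regional difference called 17.7%. Of all genes with 1 probe each, 15.3% were called in hypothalamus, 5.96% higher and 9.38% lower. The 4 of 31 are 12.9%. In cerebellum 7 rose (22.6%), 3 fell (9.68%) and 21 were not called, against 22.3% called over all genes, 6.69% higher and 15.7% lower. The list's median was 0.10 in hypothalamus and 0.03 in cerebellum, beside -0.02 for all genes in each. These counts depend on scaling. With arrays scaled to their 75th percentile, 2 rose and 7 fell in hypothalamus and 3 rose and 10 fell in cerebellum, and with quantile normalization over all arrays or within regions 0 of the 31 were called in either region.

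Txnip, the thioredoxin-binding protein that restrains glucose uptake, and Angptl4, a lipoprotein lipase inhibitor induced by fasting, rose in both regions. Txnip stood at 1.41, 1.43 and 1.35 in the fasted hypothalamus (fed 1.06, 1.00 and 0.996), a rise of 0.46 ± 0.05 log2 (adjusted p = 0.00205, limma), and its other probe rose there by 0.69. In cerebellum Txnip rose by 0.29 ± 0.06 (adjusted p = 0.00863, limma; 0.0652 without fasted replicate 2), where its other probe stood at 0.02. Angptl4 rose more in cerebellum, 0.57 ± 0.06 (1.38 and 1.55 against 1.03, 1.00 and 0.929, adjusted p = 0.000358), than in hypothalamus, 0.26 ± 0.06 (adjusted p = 0.0217), and the difference passed the test (-0.31, adjusted p = 0.037, limma). Its hypothalamic call was lost without fasted replicate 2 or 3 or fed replicate 1 or 2 (adjusted p = 0.0503 to 0.0773). Mfsd2a, a lipid transporter of brain endothelium, rose in hypothalamus by 0.75 ± 0.15 (1.52, 2.08 and 1.87 against 1.00, 1.27 and 0.976, adjusted p = 0.0156). It stood at 0.47 ± 0.17 in cerebellum (adjusted p = 0.0867, limma). Without hypothalamic fasted replicate 2 or 3 or fed replicate 1 its adjusted p was 0.0531 to 0.0571. Bcl6, a transcriptional repressor, rose by 0.26 ± 0.06 in hypothalamus (adjusted p = 0.0209, limma), and without any 1 of the 3 fasted arrays its adjusted p was 0.0533 to 0.0651.

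In the cerebellum, Mt2, a metallothionein with a classical receptor element, rose by 0.54 ± 0.08 (1.43 and 1.45 against 1.00, 1.09 and 0.898, adjusted p = 0.00132, limma). Ddit4, an inhibitor of mTOR signalling, rose by 0.32 ± 0.05 (adjusted p = 0.00299), and Cebpd, a C/EBP transcription factor gene, by 0.33 ± 0.07 (adjusted p = 0.0105; 0.0733 without fasted replicate 1). Mt2 and Ddit4 changed more in cerebellum than in hypothalamus by the test of the difference (adjusted p = 0.0294 and 0.0197, limma). That test passed for 19.1% of all genes, 11.4% more positive in hypothalamus and 7.74% more negative, and is not given for Map3k6 and Cdkn1a because the values behind it chose them. On the other side, Rhob, a small GTPase gene, fell by 0.85 on the log2 scale (0.534 and 0.527 against 1.03, 1.00 and 0.842, adjusted p = 0.000316). Mertk, a phagocytic receptor gene, fell by 0.43 on the log2 scale (adjusted p = 0.000724). Fkbp5, Tsc22d3, Per1 and Sgk1 were named whatever their values. Fkbp5, the receptor co-chaperone, stood at 0.10 ± 0.05 in hypothalamus (adjusted p = 0.238, limma) and -0.20 ± 0.06 in cerebellum (adjusted p = 0.0507). Tsc22d3, also called GILZ, stood at -0.28 and -0.11, the clock gene Per1 at -0.14 and -0.08, and none of these 4 values was called. Sgk1, a kinase gene, stood at 0.22 ± 0.06 in hypothalamus (1.16, 1.17 and 1.18 against 1.00, 1.01 and 1.00, adjusted p = 0.0503) and fell in cerebellum by 0.25 on the log2 scale (adjusted p = 0.0381; lost without 10 of the 11 arrays, at 0.0508 to 0.193).

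**Figure D3:**
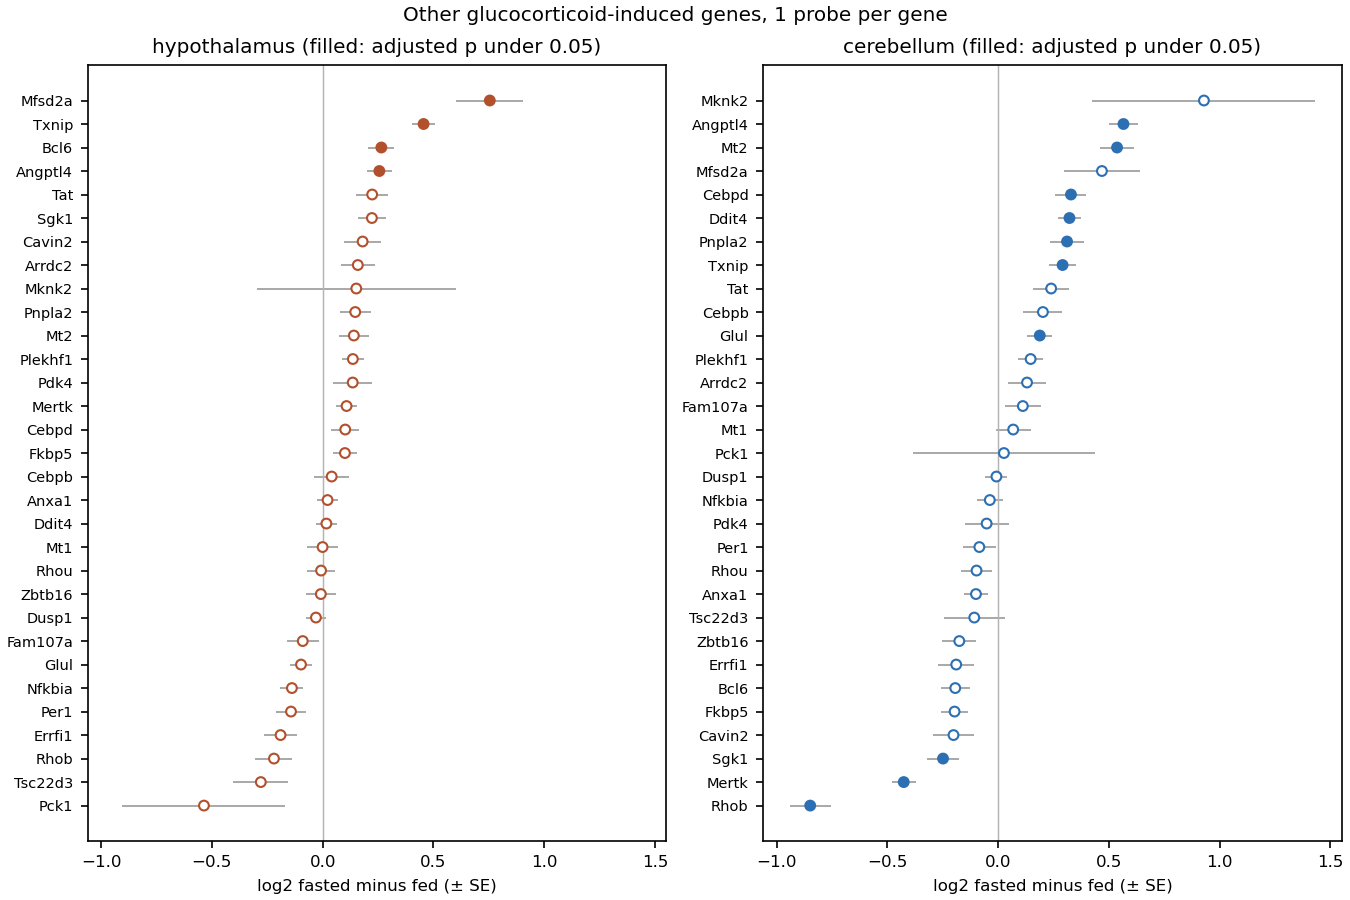
Log2 fasting change with standard error (x axis) of the 31 other glucocorticoid-induced genes, 1 probe per gene, sorted within each region; filled points passed an adjusted p of 0.05. In hypothalamus 4 filled points lie to the right and 0 to the left, in cerebellum 7 to the right and 3 to the left.

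Of 12 measured genes of the receptor machinery, 0 were called in hypothalamus (0 higher and 2 lower at an unadjusted p under 0.05, limma). In cerebellum 3 fell (25.0%, against 15.7% of all genes). Nr3c1, the receptor itself, stood at 0.04 ± 0.12 in hypothalamus and fell in cerebellum by 0.68 on the log2 scale (0.710 and 0.537 against 1.03, 1.00 and 0.939, adjusted p = 0.00831, limma; 0.0592 without fasted replicate 2). Nr3c2, the mineralocorticoid receptor, which binds corticosterone with higher affinity, fell there by 0.58 (adjusted p = 0.000144), while its other probe stood at 0.13. Ptges3, a chaperone of the unliganded receptor, fell by 0.63 on the log2 scale (adjusted p = 0.000756). The difference between regions passed the test for all 3 genes, with adjusted p = 0.028, 0.000634 and 0.0168 (limma). Hsd11b1, the enzyme that regenerates active glucocorticoid, stood at 0.00 ± 0.07 and 0.17 ± 0.08 and was not called in either region.

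Of 13 genes of the stress axis, 1 fell in hypothalamus (7.69%, against 9.38% of all genes). This was Ucn, which encodes urocortin, at -0.37 ± 0.04 in hypothalamus (adjusted p = 0.00216, limma). Crh stood at -0.25 ± 0.23 there and -0.17 ± 0.26 in cerebellum and was not called in either region. Its other probe stood at -0.19 and -0.56, also not called. The fasted hypothalamus arrays of that other probe, 0.884, 0.899 and 0.870, lay below the fed ones, 1.00, 1.06 and 0.964. Over all genes 22.6% lay so, and the representative Crh probe overlapped. In the fasted cerebellum the other Crh probe read 0.439 and 1.00. Pomc rose in cerebellum by 1.32 ± 0.05 (2.62 and 2.42 against 1.04, 1.00 and 0.987, adjusted p = 4.22e-06) and stood at 0.06 ± 0.05 in hypothalamus. Of 12 measured genes that glucocorticoids repress, 3 rose in hypothalamus (25.0%, against 5.96% of all genes). They were Ptgs2 (0.37 ± 0.10), Sele (0.31 ± 0.08) and Mmp9 (0.18 ± 0.05), at adjusted p = 0.0354, 0.0338 and 0.0489 (limma). In cerebellum 1 fell (8.33%, against 15.7% of all genes), Icam1, at -0.25 ± 0.07 (adjusted p = 0.0347, limma). Each of these last 4 calls was lost without at least 5 of the 11 arrays, with an adjusted p of up to 0.2.

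The families around each member were counted the same way. Of 16 measured lipid droplet genes, 1 rose (6.25%) and 3 fell (18.8%) in hypothalamus, against 5.96% and 9.38% of all genes. In cerebellum 0 rose and 2 fell (12.5%, against 15.7% of all genes). At an unadjusted p under 0.05 (limma), 4 were higher and 2 lower there. The other measured perilipins were not called. Plin2, the perilipin of most cell types, stood at 0.07 ± 0.06 in hypothalamus and 0.23 ± 0.07 in cerebellum, Plin3 at -0.07 ± 0.13 and 0.23 ± 0.15, and Plin5 at 0.00 ± 0.10 and 0.04 ± 0.11. Mgll, which cleaves monoacylglycerol and the endocannabinoid 2-AG, fell in hypothalamus by 0.36 on the log2 scale (adjusted p = 0.00626). Abhd5, the activator of the lipase ATGL, stood at -0.31 ± 0.06 in cerebellum (adjusted p = 0.00596, limma). The ATGL gene, Pnpla2, was counted with the other glucocorticoid-induced genes. It rose in cerebellum by 0.31 ± 0.08 (adjusted p = 0.0213, limma; up to 0.107 without 1 array). Of 14 measured sulfotransferase genes, Sult2b1, which sulfates cholesterol, rose in both regions, by 0.30 ± 0.06 and 0.24 ± 0.07 (adjusted p = 0.0151 and 0.0328, limma; up to 0.0568 and 0.187 without 1 array). Papss1, which makes the sulfate donor, fell in cerebellum by 0.60 on the log2 scale (adjusted p = 0.0044), and Sult6b1 stood at -0.26 ± 0.08 there (adjusted p = 0.0439; up to 0.182 without 1 array).

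Around Hif3a, 4 of 9 genes of the hypoxia factor machinery were called in cerebellum, 1 higher and 3 lower. These are 11.1% and 33.3% of the list, against 6.69% and 15.7% of all genes. Vhl, the ligase that tags hypoxia-inducible factors for decay, fell by 0.74 on the log2 scale (adjusted p = 0.000196, limma), and the oxygen sensor Egln1 fell by 0.59 (adjusted p = 4.72e-05). Hif1an stood at -0.23 ± 0.05 (adjusted p = 0.0143; 0.102 without fasted replicate 1) and Epas1 at 0.19 ± 0.06 (adjusted p = 0.0382; up to 0.141 without 1 array). In hypothalamus Vhl stood at -0.23 ± 0.07 (adjusted p = 0.0485, limma; up to 0.132 without 1 array). Hif1a stood at 0.30 ± 0.21 and -0.16 ± 0.23 and was not called. Of 16 measured hypoxia targets, 0 rose in either region at an adjusted p under 0.05 (3 in hypothalamus and 0 in cerebellum at an unadjusted p, limma). In cerebellum 5 fell (31.2%, against 15.7% of all genes). Among them were Hk2, a hexokinase gene, at -0.60 ± 0.05 (adjusted p = 0.000111, limma) and Ndrg1 at -0.45 ± 0.05 (adjusted p = 0.000559, limma). The 2 that fell in hypothalamus (12.5%, against 9.38% of all genes), P4ha1 and P4ha2, lost the call without 9 of the 11 arrays each.

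Around Klf9, Klf13, a close relative, fell in hypothalamus by 0.32 on the log2 scale (adjusted p = 0.00839, limma) and rose in cerebellum by 0.30 (adjusted p = 0.0079; 0.0733 without fasted replicate 1), and the difference passed the test at -0.62 (adjusted p = 0.00122). Its other probe stood at -0.05 in hypothalamus and rose by 0.57 in cerebellum. Klf15, a fasting-responsive factor and receptor target in liver and muscle, fell in cerebellum by 0.66 (adjusted p = 0.0123; 0.0973 without fasted replicate 1). Klf6 rose there by 0.49 (adjusted p = 0.00809; 0.0549 without fasted replicate 2). In all, of 15 measured Klf genes other than Klf9, 0 rose and 1 fell in hypothalamus (1 and 2 at an unadjusted p under 0.05, limma), and 2 rose and 3 fell in cerebellum.

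Around Map3k6, 10 of 21 measured genes of the same cascade fell in cerebellum (47.6%, against 15.7% of all genes). Of the rest, 10 were not called and 1 rose, Mapk8, by 0.37 on the log2 scale. Map3k5, which encodes ASK1, the partner of the Map3k6 product, fell by 0.57 on the log2 scale (adjusted p = 0.000326, limma). The kinase Map2k4, one step further down, fell by 1.05 (adjusted p = 1.91e-05). Below it, Mapk11 fell by 0.75 (adjusted p = 0.00162). Mapk10 stood at -0.79 on its representative probe and Mapk14 at -0.63, both called. Another Mapk10 probe was called lower as well (-0.33, adjusted p = 0.00249, limma). The third Mapk10 probe read 0.88 and was not called (adjusted p = 0.641, limma), with ratios from 0.01 to 3.38 over the 11 arrays. The other Mapk14 probe rose by 0.34 (adjusted p = 0.00993, limma). In hypothalamus 2 of the 21 rose and 2 fell (9.52% each, against 5.96% and 9.38% of all genes).

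Around Cdkn1a, of 5 other measured inhibitors of cyclin-dependent kinases 0 were called in hypothalamus (1 higher and 1 lower at an unadjusted p under 0.05, limma). In cerebellum Cdkn2b rose by 0.25 ± 0.05 (adjusted p = 0.00885; 0.0655 without fasted replicate 1). Of 15 measured p53 targets, 0 rose in cerebellum (3 at an unadjusted p under 0.05, limma) and 3 fell, Ccng1 by 0.87, Mdm2 by 0.39 and Sesn1 by 0.15 on the log2 scale (adjusted p = 0.000113, 0.00691 and 0.0313; Sesn1 up to 0.148 without 1 array). The 3 of 15 stand against 15.7% of all genes that fell, and the other 12 were not called. The other Sesn1 probe stood at -1.08. In hypothalamus 1 rose and 1 fell (6.67% each, against 5.96% and 9.38% of all genes).

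**Figure D4:**
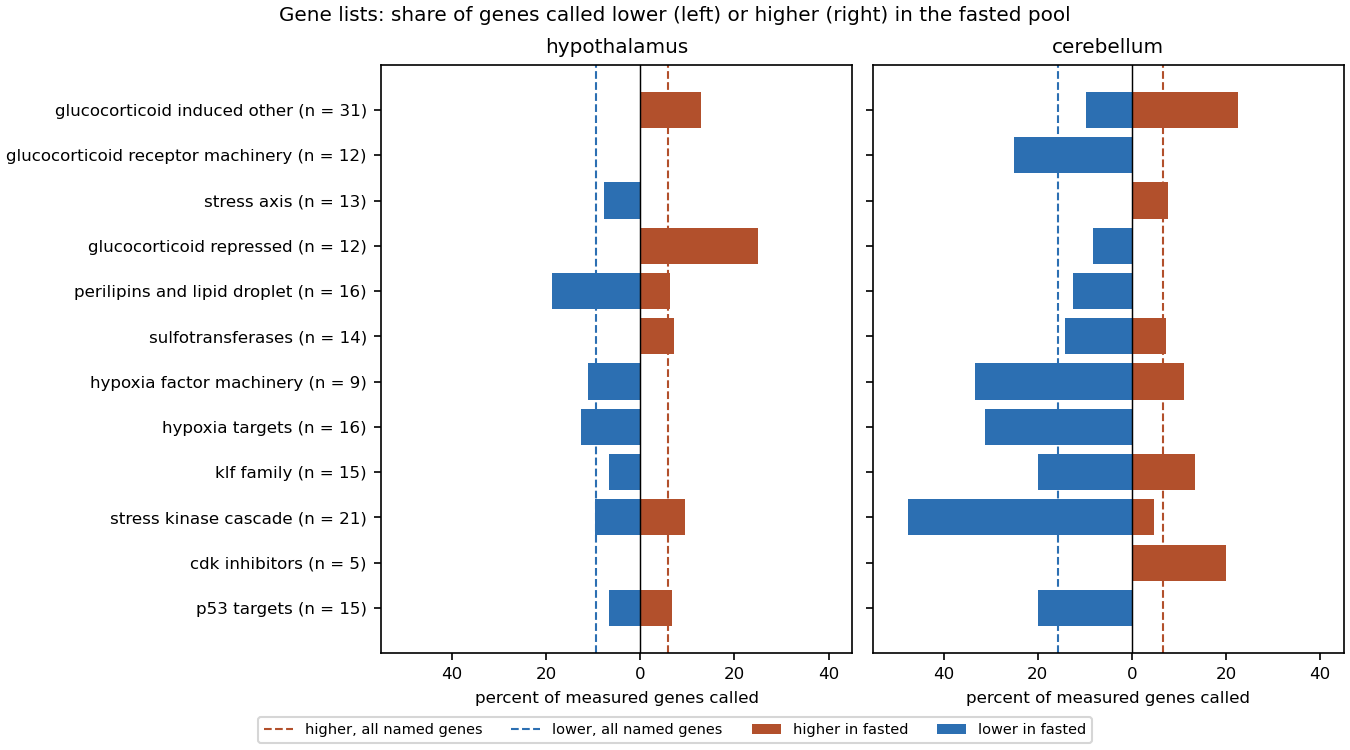
Percent of the measured genes of each list called higher (bars to the right) or lower (bars to the left) in the fasted pool at an adjusted p under 0.05, 1 probe per gene; dashed lines give the same shares over all 18048 genes. The other glucocorticoid-induced genes reach 22.6% higher in cerebellum against 6.69% over all genes, and the stress kinases 47.6% lower against 15.7%. The lists were chosen with earlier results of these data known, so these shares are a description.

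Markers of other cells moved in the same arrays. Of all genes, 5.96% rose and 9.38% fell in hypothalamus, and 6.69% rose and 15.7% fell in cerebellum. Prl, a hormone gene of the anterior pituitary, stood at 12.8, 12.3 and 11.5 in the fasted hypothalamus and at 8.72 and 8.55 in the fasted cerebellum, rises of 3.60 and 3.07 log2 (adjusted p = 5.06e-08 and 5.43e-07, limma). The other 7 measured pituitary genes gave 2 higher and 1 lower in hypothalamus and 1 higher in cerebellum. Alas2, an erythroid gene, was the 1 called of 2 measured blood markers, at 0.70 and 0.34 log2. The other measured blood marker stood at 0.02 in hypothalamus and -0.04 in cerebellum. In hypothalamus 9 of 17 markers of pericytes and meninges rose (52.9%) and 0 fell, with a range of -0.22 to 0.49. In cerebellum 1 rose (5.88%) and 6 fell (35.3%), with a range of -1.38 to 0.59. Of 15 endothelial markers 0 were called in hypothalamus (1 higher and 2 lower at an unadjusted p under 0.05, limma). In cerebellum 1 rose (6.67%) and 5 fell (33.3%). Of 7 adipocyte markers, the cells best known for Plin4, 0 were called in either region (0 higher and 1 lower in each at an unadjusted p under 0.05), with log2 changes from -0.56 to 0.15 and from -0.26 to 0.45. In the fasted hypothalamus 10 of 11 thalamus markers fell (90.9%) and 0 rose. There, 5 of 13 markers of cerebellar neurons rose (38.5%) and Zic1 fell, by 0.46 on the log2 scale. In the fasted cerebellum 2 thalamus markers fell (18.2%). Of the 13 cerebellar neuron markers 0 were called there (0 higher and 1 lower at an unadjusted p under 0.05, limma). The part of these cells in the values of the 6 genes was not tested, and ratios do not show which markers are near 0.

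The members' values were recomputed under other ways of processing, as the plot of settings shows. Plin4 stayed between 1.07 and 1.66 log2 in hypothalamus and between 0.53 and 1.01 in cerebellum, and Sult1a1 between 0.93 and 1.23 and between 0.38 and 0.84. Map3k6 stayed between 0.32 and 0.71 and Cdkn1a between 0.34 and 0.63 in cerebellum, with quantile normalization giving the low end of each. Klf9 in hypothalamus stayed between -0.41 and -0.23. The hypothalamic value of Map3k6 was 0.01 with 75th percentile scaling, and that of Cdkn1a ranged from -0.14 to 0.00. Leaving out 1 array put Plin4 between 1.39 and 1.53 in hypothalamus and Sult1a1 between 0.64 and 0.84 in cerebellum.

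**Figure D5:**
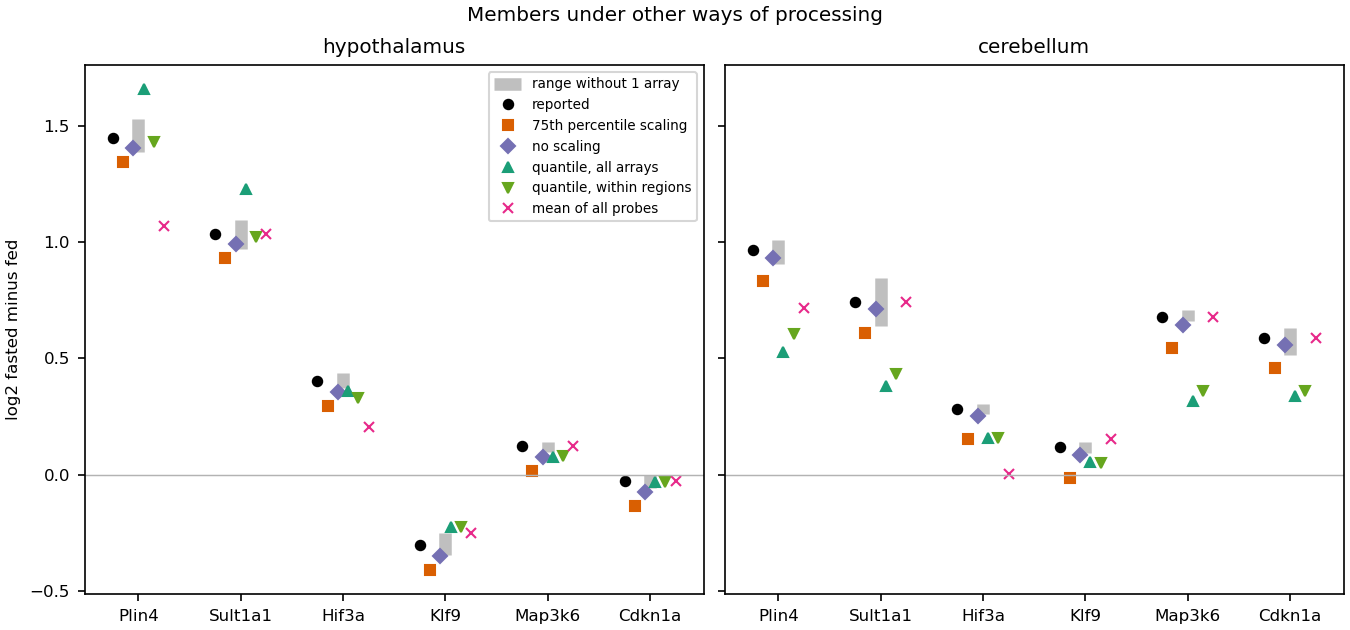
Log2 fasting change of the 6 genes (y axis) as reported and under 5 other settings, with grey bars for the range when 1 array is left out. Quantile normalization raises Plin4 in hypothalamus to 1.66 and lowers it in cerebellum to 0.53, and the Hif3a value in cerebellum is 0.00 when all 3 of its probes are averaged.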

How the data were processed

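Gene expression in 4 pools of mouse brain RNA was measured on 11 single-colour arrays. The authors deposited 1 linear ratio for each of 34999 probes and array. In those deposited ratios the fed median of a region is 1 within 6e-08 for every probe, and the lowest value is 0.01. Which software, background correction and scaling were used is not given in the sources used here. Of the probes, 21590 carry 1 gene symbol, 681 several and 12728 none.

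Each ratio was divided by its array's median, set to at least 0.1, and log2 was taken. A limma 3.58.1 fit (R 4.3.3) of 4 group means over 11 arrays gave changes, SE and p-values, adjusted by Benjamini-Hochberg over all probes and called under 0.05, with 7 residual and 1.82 prior degrees of freedom. It was tested on simulated data. A gene was represented by its probe with 1 symbol and the smallest residual SD. The median SD between arrays was 0.0866 and 0.0746 in fed and fasted hypothalamus and 0.0757 and 0.0637 in cerebellum. The number of arrays limits precision, and ratios carry no brightness.

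The 6 members and the gene lists were chosen with earlier results of these data known. Named were all member probes, up to 4 called genes of each list in a region by size of change, fixed receptor, perilipin and hypoxia genes, and the 3 genes most like each member. Marker lists are given by counts. Alternatives covered scaling, floor, an extreme-ratio filter, the variance prior, arrays in the fit, a replicate block, the probe rule and single arrays left out. The third fasted cerebellum array was not analysed here.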

Additional observations from a re-analysis of the deposited data

Results flagged for a closer look

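For 2 member probes the fasted arrays lay on opposite sides of the fed arrays in the regions, and this difference was not tested. It was 0.41 log2 (hypothalamus minus cerebellum) for the Hif3a probe of an expressed sequence tag, which stood above in hypothalamus and below in cerebellum. It was -0.42 for the representative Klf9 probe, which stood below in hypothalamus and above in cerebellum. The cerebellar Klf9 value turned to -0.01 with 75th percentile scaling. The other Hif3a probes and the other Klf9 probe did not show such a split, since their arrays overlapped in at least 1 region or lay on one side in both.

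The fasting change differed between regions by limma's interaction test (adjusted p under 0.05) for 34 of the 66 other genes named by rule, against 19.1% of all genes. It was more positive in hypothalamus for 23 and more negative for 11, and is given below as hypothalamus minus cerebellum in log2. Among other glucocorticoid-induced genes it was positive for Fkbp5 (0.30), Sgk1 (0.47), Bcl6 (0.46), Rhob (0.63) and Mertk (0.53), and negative for Angptl4 (-0.31), Mt2 (-0.40), Ddit4 (-0.31) and Glul (-0.29). Receptor machinery showed positive differences for Nr3c1 (0.72), Nr3c2 (0.64) and Ptges3 (0.49). In the stress axis Ucn (-0.38) and Pomc (-1.26) were more negative in hypothalamus, and of the repressed genes Mmp9 (0.35) and Icam1 (0.32) more positive. Of lipid droplet and sulfation genes, Mgll (-0.39) and Cideb (-0.30) were more negative and Papss1 (0.59) more positive. The named hypoxia genes that passed the test were all more positive, Vhl (0.51), Egln1 (0.68), Hk2 (0.75) and Ndrg1 (0.45). Of the Klf genes, Klf13 (-0.62) and Klf6 (-0.63) were more negative. Stress kinase genes were more positive for Map3k5 (0.49), Map2k4 (0.93), Mapk10 (0.88), Mapk11 (0.56) and Mapk14 (0.69), and Txn1, a thioredoxin gene, was more negative (-0.40). The p53 targets Ccng1 (0.74), Mdm2 (0.58) and Sesn1 (0.25) were more positive. Genes were named for being called in a region, which favours such differences, so the share of 34 in 66 is a description. Of these genes, 8 have other probes, 9 in all, and 4 of the 9 gave a difference of the opposite sign. These were the other probes of Glul (0.02) and Cideb (0.14), 1 of the other Mapk10 probes (-0.71) and the other Mapk14 probe (-0.39). Of these 4, only the Mapk14 probe passed the test (adjusted p = 0.0244, limma). The other probes of Nr3c2 (0.04), Ndrg1 (0.32), Klf13 (-0.62) and Sesn1 (1.00) and the remaining Mapk10 probe (0.01) had the same sign. Among these same-sign probes, only those of Klf13 and Sesn1 passed the test (adjusted p = 0.0238 and 0.00563, limma).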

How the results depend on the processing

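Over all probes, 4980 were called in hypothalamus (44.6% higher) and 7302 in cerebellum (46.3% higher), and 6184 for the difference between regions. Scaling to the 75th percentile, which moves the median of all probes to -0.11 and -0.12 log2, gave 9254 (7.72% higher) and 11088 (15.6%), and 9 and 13 of the 31 other glucocorticoid-induced genes in place of 4 and 10. Without scaling the counts were 5695 (24.1% higher) and 7374 (37.2%). Quantile normalization over all arrays gave 32 in hypothalamus (59.4% higher), 441 in cerebellum (12.7%) and 153 for the difference (79.1%). Within regions it gave 25 (40.0%), 466 (25.1%) and 128 (64.8%). In each quantile setting 0 of the 31 genes were called in either region (3 in hypothalamus, and 3 and 4 in cerebellum, at an unadjusted p under 0.05, limma). Fitting only the arrays of a region gave 2210 in hypothalamus and 6 of the 31 in cerebellum.

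Leaving out 1 array gave 1940 to 5438 in hypothalamus, 4540 to 7549 in cerebellum and 4351 to 6307 for the difference, and 1 to 7 and 6 to 10 of the 31 genes. The hypothalamic list count was 1 without hypothalamus fasted replicate 2 or 3, 2 without fed replicate 1 and 7 without cerebellum fed replicate 3. The cerebellar one was 6 without cerebellum fasted replicate 1. Of the named calls outside the members, 4 of 23 in hypothalamus and 22 of 41 in cerebellum were kept without any 1 array. Where a call was lost, the adjusted p was 0.0503 to 0.145 and 0.0501 to 0.318.

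Replicate numbers are shared between groups, but arrays of the same number did not deviate together (r = 0.07, 0.10 and 0.07 in hypothalamus, 0.04 and -0.02 in cerebellum), so they were not taken as pairs. With the replicate number as a block, the fit of all arrays gave 5458, 7320 and 5934 probes. In the arrays of a region alone the block gave 48 in hypothalamus and 0 in cerebellum (8445 at an unadjusted p under 0.05, limma), and 0 of the 31 genes in either region (12 and 13 unadjusted).

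The 12 member values kept their sign under all settings run, apart from Klf9 in cerebellum (-0.01 with 75th percentile scaling) and Cdkn1a in hypothalamus, which reached 0.00 without 1 array. A floor of 0.01, the filter on extreme ratios and a variance trend changed no count by over 1.5 times. The mean over probes was run only for the members and the list. Signal over background is unknown, so dim probes could not be left out.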

Other observations

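Markers of glia and choroid plexus were counted in the same way. Of 13 oligodendrocyte markers 5 fell in hypothalamus and 5 fell and 1 rose in cerebellum, and Ugt8a, Olig1, Olig2 and Ermn fell in both regions (limma, adjusted p under 0.05). Aspa, an enzyme of oligodendrocytes, rose in cerebellum by 0.36, and the list's median was -0.21 in hypothalamus and -0.01 in cerebellum, where all genes had a median of -0.02. Olig2, a lineage factor gene, stood at -0.56 and -0.69 log2, and Ugt8a, an enzyme of myelin lipid synthesis, at -0.63 and -0.82. Of 11 microglia markers 6 fell in hypothalamus, where Fcer1g stood at -0.32, and 2 fell in cerebellum, 18.2% of the list. Of 13 astrocyte markers 3 fell in hypothalamus, and 5 fell and 1 rose in cerebellum, with Gja1 of astrocytic gap junctions at -0.95 and Agt, the angiotensinogen gene, at 0.45. Aqp4, the astrocytic water channel, fell in both regions, by 0.48 and 0.18, but its other probe stood at -0.54 and 0.41. Of 8 choroid plexus markers 1 rose and 2 fell in hypothalamus and 5 fell in cerebellum. Over all genes 5.96% rose and 9.38% fell in hypothalamus, and 6.69% rose and 15.7% fell in cerebellum.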
